A study of Mus musculus with 20 samples.

Results

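The genes described are those for the proteins of the cytosolic ribosome in AML-12, a line of immortalised hepatocytes from mouse. They were chosen by name and biotype: protein-coding genes called Rpl, Rps or Rplp plus a number, without pseudogenes or S6 kinases, that stood in at least 1 of the 4 deposited gene tables. This gave 62 genes, 25 of the small and 37 of the large subunit, out of 83 such genes in the GENCODE annotation and out of 6261 genes listed in any table. Of a catalogue of 76 canonical ribosomal proteins with such names, 59 were among them, and the other 3 were the paralogs Rpl7l1, Rpl22l1 and Rps27l. The tables hold no gene above an adjusted p-value of 0.05 in the authors' test. Listing thus already used the same comparison, and counts over listed members are descriptions.

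The study compared RNA from 20 libraries in 4 groups of 5: Ripk3-/- cells given 125 µM palmitate on bovine serum albumin over 24 h, wild-type (WT) cells given the same, untreated Ripk3-/- cells and untreated WT cells. Ripk3 encodes a kinase of the necroptosis pathway, a form of programmed cell death, and palmitate is a saturated fatty acid used to load hepatocytes with lipid. No group is described as given albumin alone, so an effect of palmitate and one of albumin cannot be told apart. Neither the number of knockout clones nor the number of cultures behind each group of 5 libraries is stated. Genotype and clone therefore cannot be told apart, and the p-values cover only the spread between libraries, which may be technical in part.

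A ribosome consists of a small subunit, which reads the mRNA, and a large subunit, which joins the amino acids, and most ribosomal proteins are present in 1 copy per ribosome. Most of their mRNAs are short and very abundant, and many begin with a C followed by an uninterrupted run of pyrimidines (C or T), the 5′ terminal oligopyrimidine (TOP) motif. Through this motif the kinase mTORC1 and the RNA-binding protein Larp1 control their translation and stability.

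Library totals were 21.2 to 30.1 M reads. Ripk3 had 2 to 11 normalised counts in Ripk3-/- cells with palmitate against 18 to 26 in WT cells with palmitate, and 1 to 9 in untreated Ripk3-/- cells against 10 to 26 in untreated WT cells, with no overlap in either pair. These counts were low in all groups, and the untreated ranges nearly touched. Untreated Ripk3-/- replicate 1 stood apart. Its counts differed from those of the other 4 libraries of its group by a chi-square of 35.6 to 49.1 per degree of freedom, and the other 36 pairs within groups gave at most 15.5 in the genotype tables. Over the genes listed for palmitate in Ripk3-/- cells it did not stand apart: its pairs gave 5.39 to 13.4, and the other pairs of untreated Ripk3-/- libraries 3.0 to 13.6. It matched its genotype label for Ripk3 (6 normalised counts) and for Apoe, the apolipoprotein E gene (320 normalised counts, against 252 to 370 in the other untreated Ripk3-/- libraries and 1974 to 2582 in untreated WT). Members' fold changes and calls without palmitate are therefore also given without it, while values under an offset rest on all libraries. Of the markers checked, 7 hepatocyte genes stood in at least 1 table, among them Ttr (transthyretin) at 358 to 501 FPKM (fragments scaled by gene length and library size) and Alb (albumin) at 2.87 to 6.69 FPKM. Markers of other cell types were listed too: of cholangiocytes Krt19 at 112 to 198, Sox9 at 49.0 to 72.4 and Krt7 at 7.07 to 8.54 FPKM, of mesenchymal cells Vim at 165 to 204 FPKM, and of leukocytes Cd68 at 0.641 to 2.02 FPKM. Krt19, Sox9 and Vim stood in both genotype tables, and their part in the results was not tested.

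The annotated starts of ribosomal protein genes are shown because the TOP motif is what this family is known to share. RefSeq (build GRCm38.p6) gave a promoter for 49 of the 62 genes. A start with C at the first transcribed base followed by at least 4 pyrimidines, on the gene's strand, was found in 10 of these 49 genes (20.4%), against 813 of 27025 genes with a promoter (3.01%). Each window below runs 5′ to 3′ from 10 bases before the annotated start and holds 30 bases. Capitals mark the pyrimidine run through the start, and Rpl39, Rps28 and Rps24 have no such start in this annotation.
Rpl38 (chr11:114668570-114668599, plus strand): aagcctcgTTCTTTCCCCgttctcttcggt
Rps21 (chr2:180257369-180257398, plus strand): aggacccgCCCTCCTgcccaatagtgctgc
Rpl15 (chr14:18270967-18270996, minus strand): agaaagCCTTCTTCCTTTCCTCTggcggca
Rpl39 (chrX:37085203-37085232, minus strand): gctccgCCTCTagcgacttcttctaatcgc
Rps28 (chr17:33824543-33824572, minus strand): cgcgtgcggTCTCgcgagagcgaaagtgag
Rps24 (chr14:24490668-24490697, plus strand): gctggggTCCTTCCTTgcgcgttgatatga
Fold changes of the 10 genes with such a start overlapped those of the 38 other listed members with a promoter. In palmitate-treated cells the medians were 0.35 and 0.31 on the log2 scale, with ranges of -0.10 to 1.22 and 0.09 to 1.46. The split rested on the annotated first base: Rpl27a, with a run of 20 pyrimidines through its start, was among the 38. A run of at least 8 pyrimidines near the start was found in 16 of the 49 genes (32.7%), against 6.80% of all genes with a promoter.

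With palmitate, nearly all listed ribosomal protein mRNAs were higher in Ripk3-/- cells than in WT cells by the authors' size factors. The highest median was among those of the shortest coding sequence. Not listed in any comparison, and so not analysed, were 17 of the 76 canonical genes. Of the 61 members listed, 60 passed edgeR's quasi-likelihood test at an adjusted p-value under 0.05: 59 were higher and 1, Rpl15, was lower. Over all 17611 genes that the authors tested, 24.2% passed in either direction, 12.1% as higher and 12.1% as lower, and the authors listed 24.6%. Genes not listed could not be run through edgeR and count there as not passing. Among the 4333 listed genes 4259 passed, a share like that of the listed members. Against the catalogue, 57 of 76 canonical genes (75.0%) passed, but the listing used this contrast and this share is a description. The direction of some members depended on the scaling. Under an offset fitted on the gene length in the authors' tables, 50 passed as higher and 6 as lower. Of the 60, 9 turned, among them Rpl36, Rplp1 and Rps27l. This offset was fitted on listed genes other than members, which include 62 ribosomal protein pseudogenes, 57 of them higher. Their part in the turns was not tested. The median log2 fold change of the listed members was 0.31, against 0.06 over all listed genes. In bulk RNA, fewer cells of a type and less RNA per cell cannot be told apart.

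Rps29, a small-subunit protein of 56 residues that binds zinc, had normalised counts (reads divided by 1 factor per library) of 5680, 7280, 7016, 7924 and 8738 in Ripk3-/- libraries with palmitate, against 2791, 2212, 2681, 2298 and 2065 in WT libraries with palmitate. Every knockout library lay above every WT library, and the log2 fold change was 1.60 ± 0.13 (SE, n = 5 each; edgeR adjusted p = 3.49e-05). Rpl39, a protein of 51 residues that lines the exit tunnel for the new peptide, had 20349, 24749, 23064, 31505 and 32719 normalised counts in Ripk3-/- cells, against 10959, 9347, 10593, 9396 and 7670 in WT cells. The log2 fold change was 1.46 ± 0.16 (SE; edgeR adjusted p = 0.000199), again with no overlap. Rps28, which sits near the path by which mRNA leaves the small subunit, averaged 8746 ± 1020.0 normalised counts in Ripk3-/- cells and 3913 ± 374 in WT cells (SD, n = 5 each). Its log2 fold change was 1.16 ± 0.10 (SE; edgeR adjusted p = 4.1e-05). Rpl38, a large-subunit protein whose loss in mice alters the skeleton, had 7397 to 9438 normalised counts in Ripk3-/- cells against 3286 to 4313 in WT cells, a log2 fold change of 1.22 ± 0.09 (SE). Rps21, Rps27, Rpl37 and Rpl37a rose by 1.03, 0.94, 0.85 and 0.78 on the log2 scale without overlap of the groups. Replicate 1 was the lowest of the 5 knockout libraries for Rps29, Rpl39, Rps28 and Rpl38.

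Other members differed little. Rplp0, which anchors the stalk that recruits elongation factors, had 53034, 56435, 56210, 56816 and 56962 normalised counts in Ripk3-/- cells, against 55475, 51437, 52786, 51319 and 50518 in WT cells. These groups overlapped, and the log2 fold change was 0.10 ± 0.03 (SE; edgeR adjusted p = 0.0131). The other stalk proteins, Rplp1 and Rplp2, rose by 0.47 ± 0.06 and 0.33 ± 0.10 (SE, log2), Rplp1 turning to -0.15 under the gene length offset. Rps25, a small-subunit protein, rose by 0.10 ± 0.03 (SE, log2; edgeR adjusted p = 0.0299) with overlapping groups. The calls of both rested on single libraries: that of Rplp0 was lost without WT replicate 5, and that of Rps25 without knockout replicate 2, 3 or 5 or WT replicate 2, 3 or 4. Over the 61 listed members, 42 did not overlap between the groups, and among all 4333 listed genes 70.5% did not.

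Per length, the authors' FPKM ranked Rplp1 highest, at 3336 ± 193 in Ripk3-/- cells and 2409 ± 194 in WT cells with palmitate (SD, n = 5 each). Rplp0 came next, at 1384 ± 41.3 FPKM in Ripk3-/- cells and 1295 ± 48.5 FPKM in WT cells. The median member lay at 316 FPKM in Ripk3-/- cells and 240 FPKM in WT cells, and the lowest, Rpl35a, at 4.13 ± 0.53 and 3.21 ± 0.39 FPKM. The gene lengths behind these values count exons of all transcripts together, which gave Rps15a (130 residues) a length of 6270 bases and lowers its FPKM. By counts Rps15a, the longest listed member, rose by 0.37 ± 0.05 (SE, log2) with palmitate, and Rpl36, the shortest at 404 bases, by 0.66 ± 0.09, turning to -0.05 under the gene length offset. Such lengths also set the low rank of some members, so levels of neighbouring members in this order were not tested against each other.

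Without palmitate, 44 members were listed and 27 passed the test, 25 higher in Ripk3-/- cells and 2 lower (Rps24 and Rpl15). The share over all 16106 tested genes was 14.5% in either direction, 7.08% higher and 7.42% lower, and the authors listed 18%. Among the 2894 listed genes 2336 passed, a larger share than among the listed members. The median log2 fold change was 0.25 over the listed members and 0.10 over all listed genes. This count rested on single libraries. Without untreated Ripk3-/- replicate 1, 41 members passed (39 higher, 2 lower), against 14.9% of all tested genes and 2392 of the 2894 listed genes. The median was 0.31, and all 27 were among the 41. Under the gene length offset 3 of the 27 turned (Rpl19, Rpl36 and Rplp1). Leaving out knockout replicate 2, 3, 4 or 5 gave 9, 8, 8 and 14 passing members. Leaving out WT replicate 1, 2, 4 or 5 gave 11, 8, 16 and 7, and leaving out WT replicate 3 gave 29.

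Rps29 showed the position of replicate 1 most clearly, with 2412, 7428, 7823, 8013 and 7826 normalised counts in untreated Ripk3-/- libraries, against 2804, 2034, 2983, 2948 and 2809 in untreated WT libraries. Replicate 1 lay inside the WT range and the other 4 knockout libraries lay above all WT libraries. The log2 fold change was 1.30 ± 0.31 (SE; edgeR adjusted p = 0.0264) with replicate 1 and 1.52 ± 0.09 (SE; edgeR adjusted p = 3.84e-08) without it. Rpl39 showed the same split, with 9220 normalised counts in replicate 1 and 26067 to 27844 in the other knockout libraries, against 8724 to 12062 in WT libraries. Its log2 fold change was 1.12 ± 0.29 (SE; edgeR adjusted p = 0.0332) and 1.33 without replicate 1. Rps28, Rpl38 and Rpl37 had log2 fold changes of 0.92, 1.06 and 0.71 with all 10 libraries and 1.10, 1.24 and 0.86 without that library.

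Further members that rose in untreated cells were Rpl36, Rpl9, Rps20, Rplp1 and Rps19, the last of which is the gene most often mutated in human Diamond-Blackfan anaemia. Their log2 fold changes were 0.52, 0.38, 0.37, 0.36 and 0.35, each with 4 of 5 knockout libraries above every WT library, and 0.62, 0.47, 0.44, 0.44 and 0.41 without replicate 1. The smallest changes that passed were those of Rpl27 and Rpl7, at 0.21 and 0.16 with replicate 1 and 0.25 and 0.19 without it. Of the 44 listed members, 1 (Rpl15) did not overlap between the groups, and 39 did not once replicate 1 was left out. Among all 2894 listed genes the share without overlap was 57% with all libraries and 73.9% without replicate 1.

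**Figure D1:**
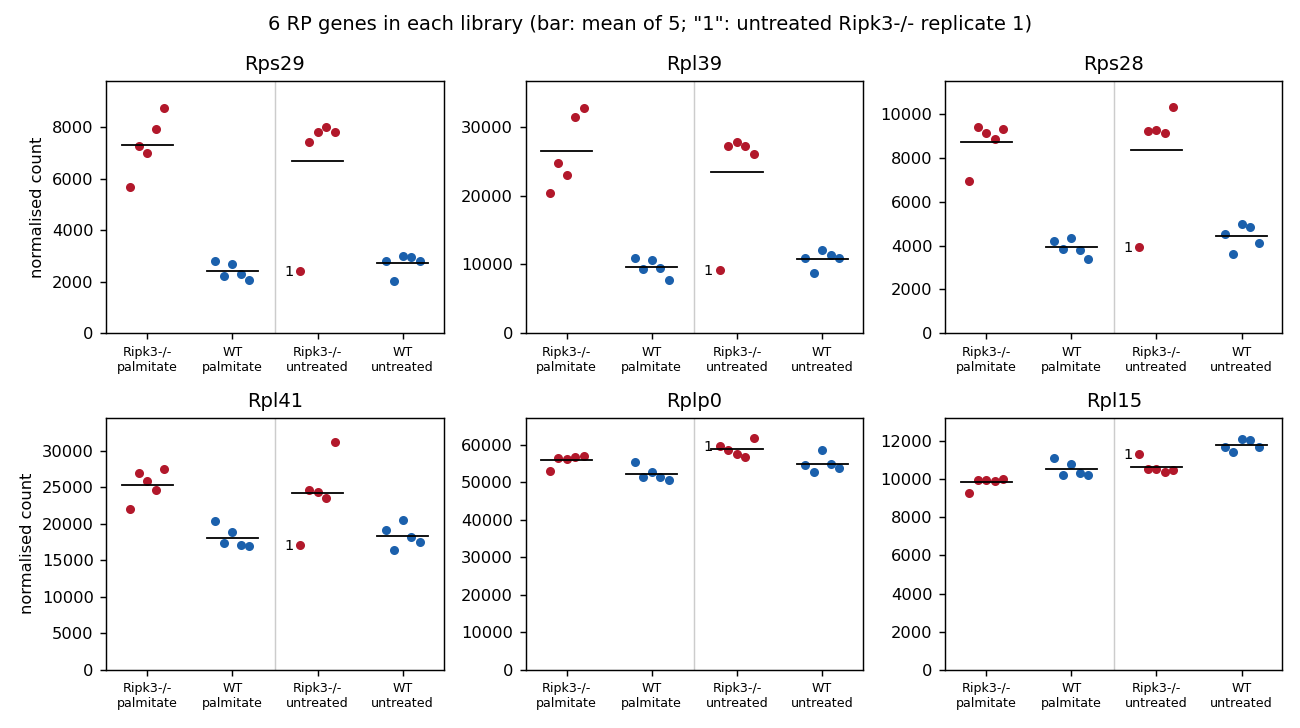
Normalised counts (y axis, from 0) of 6 ribosomal protein genes in each of 20 libraries, with the mean of 5 as a bar; the left and right pairs come from tables that were normalised separately. In Rps29, Rpl39 and Rps28 every Ripk3-/- library lay above the WT libraries of its pair except untreated replicate 1, while Rplp0 overlapped and Rpl15 was lower in Ripk3-/- cells.

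Across libraries the members moved together. Relative to the mean of untreated WT libraries, the median member lay at 0.26 to 0.42 on the log2 scale in untreated Ripk3-/- replicates 2 to 5 and at 0.005 in replicate 1. In untreated WT libraries it lay between -0.12 and 0.12. In WT replicate 2 none of the 44 members (0) was above the WT mean, and in WT replicate 3 there were 43. With palmitate the median member lay at 0.19 to 0.37 in Ripk3-/- libraries and at -0.06 to 0.11 in WT libraries, relative to the WT mean. Summed over the 43 members in both genotype tables, the share of all reads was 2.72% ± 0.15 in Ripk3-/- cells with palmitate, 2.09% ± 0.11 in WT cells with palmitate, 2.63% ± 0.29 in untreated Ripk3-/- cells and 2.16% ± 0.13 in untreated WT cells (SD, n = 5 each). Untreated Ripk3-/- replicate 1 had 2.18%.

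**Figure D2:**
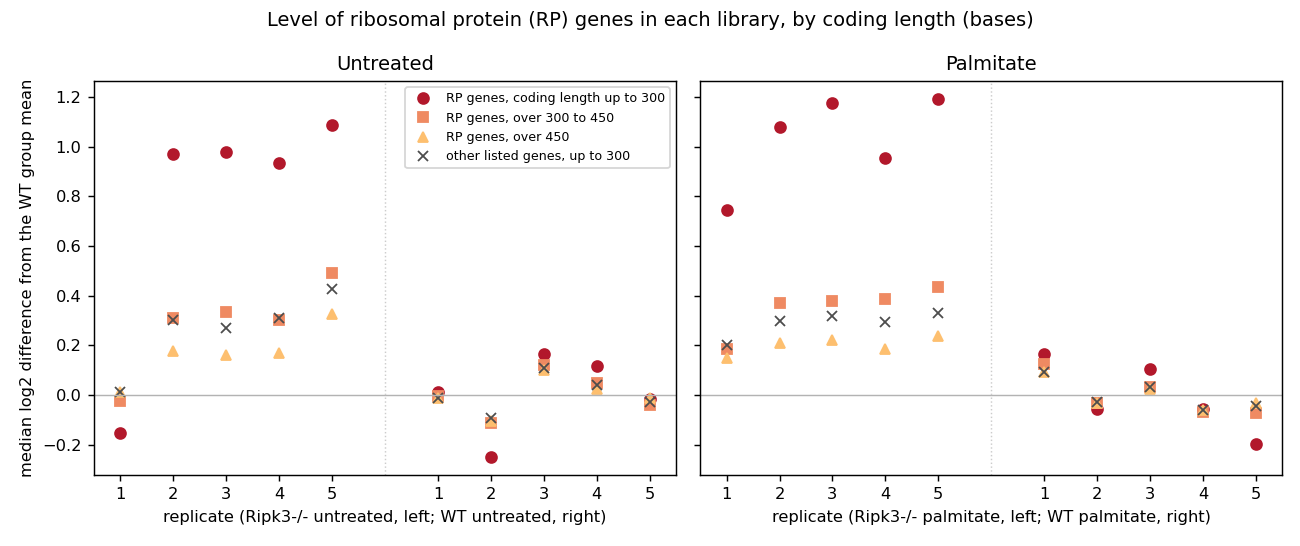
Median log2 difference from the mean of the WT group (y axis) in each library, for ribosomal protein genes in 3 classes of coding length and for other listed genes of up to 300 coding bases. The shortest members lay at 0.93 to 1.09 in untreated Ripk3-/- replicates 2 to 5 and at -0.15 in replicate 1, and the other short genes shifted in the same libraries by less.

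The size of the fold change went with the length of the coding sequence. With palmitate, the 10 listed members of up to 300 coding bases had a median log2 fold change of 0.98, the 24 of 301 to 450 bases 0.37, the 25 of 451 to 900 bases 0.22, and the 2 longer ones, Rplp0 and Rpl3, 0.14. Without palmitate the medians over 8, 16, 18 and 2 listed members were 0.82, 0.31, 0.20 and 0.13, and 0.98, 0.36, 0.25 and 0.14 without replicate 1. Across members, the log2 fold change and the log2 coding length had a Pearson r of -0.63 and a Spearman rho of -0.70 with palmitate (n = 61 genes) and -0.68 and -0.75 without it (n = 44 genes; -0.70 and -0.76 without replicate 1). These are descriptions across genes that share libraries, not tests. Over the gene length in the authors' tables, the measure planned for this description, the Pearson r was -0.29 with palmitate and -0.55 without. Over mRNA length it was -0.49 and -0.54. Across other listed genes, coding length had a Pearson r of only -0.10 with palmitate and -0.04 without.

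Other genes with short coding sequences leaned the same way, with a lower median than the members. With palmitate, 98 of 116 other listed genes of up to 300 coding bases were higher in Ripk3-/- cells (84.5%), with a median log2 fold change of 0.30. Without palmitate it was 63 of 75 (84%) with a median of 0.29, or 0.35 without replicate 1. By the gene length in the authors' tables the order was the reverse in the shortest class. With palmitate, the 3 members with a length of 600 bases or less had a median of 0.66 and the 270 other genes of that class 0.83, of which 235 were higher. Above 600 and up to 1000 bases the medians were 0.23 for 7 members and 0.39 for 223 other genes. Without palmitate, the medians in the shortest class were 0.52 for 3 members and 0.59 for 173 other genes. Classes by gene length, unlike those by coding length, also took in genes without a coding sequence. These may include ribosomal protein pseudogenes, whose part was not tested. Of other listed genes over 900 coding bases, 38.9% were higher with palmitate and 44.6% without. Across libraries the other genes of up to 300 coding bases shifted beside the members. They lay at 0.27 to 0.43 in untreated Ripk3-/- replicates 2 to 5 and at 0.01 in replicate 1. In untreated WT libraries they lay at -0.09 in replicate 2 and at 0.11 in replicate 3. The part of this shift in the members' fold changes was addressed by an offset, fitted in each library on the coding length of listed non-member genes and chosen after the data were seen. With it, 50 of 61 members passed with palmitate (49 higher), with a median log2 fold change of 0.21. Without palmitate 29 of 44 passed (27 higher), with a median of 0.20. With the offset Rps29 had a log2 fold change of 1.21 with palmitate and 0.90 without. Which property of the libraries went with length was not tested.

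**Figure D3:**
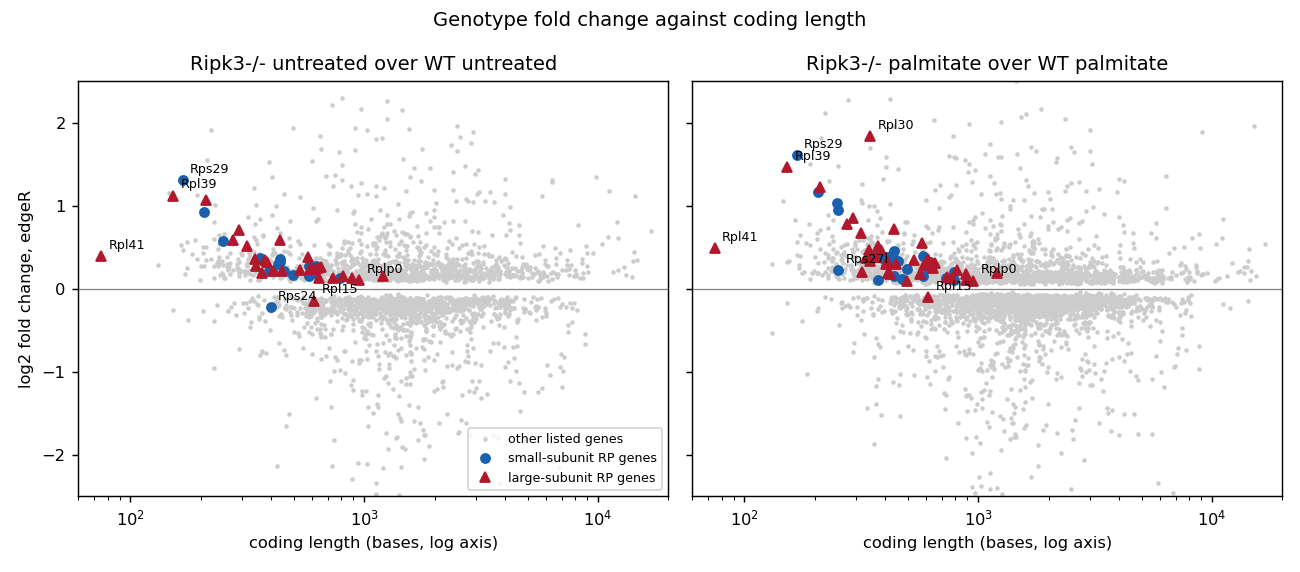
Log2 fold change of Ripk3-/- over WT cells (y axis) against coding length in bases (x axis, log scale) for ribosomal protein genes by subunit and for other listed genes (grey); 50 grey points with palmitate and 38 without lie outside the axis limit of 2.5. Most members of up to 300 coding bases lay high, except Rpl41 and Rps27l, Rpl30 lay highest with palmitate, and the band around 0 is empty because only passing genes are listed.

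Rpl41 stood out from this order. It encodes the smallest ribosomal protein, of 25 residues, yet its log2 fold change was 0.49 ± 0.07 with palmitate (SE; edgeR adjusted p = 0.00111) and 0.39 ± 0.14 without (SE; edgeR adjusted p = 0.105). Without untreated Ripk3-/- replicate 1 the value in untreated cells was 0.49 ± 0.08 and passed (SE; edgeR adjusted p = 0.000698). It had 21987, 26935, 25851, 24592 and 27562 normalised counts in Ripk3-/- cells with palmitate, against 20341, 17374, 18911, 17055 and 17008 in WT cells with palmitate. The groups did not overlap. With the coding length offset its log2 fold change was 0.03 with palmitate and -0.06 without. Rps27l, a paralog of Rps27 of 84 residues that is a known p53 target, was the other short member with a small difference, at 0.23 ± 0.04 with palmitate (SE, log2; edgeR adjusted p = 0.000367). Its direction turned under the gene length offset (-0.16) and the coding length offset (-0.06).

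Both subunits took part. With palmitate, 23 of 30 canonical small-subunit genes (76.7%) and 34 of 46 large-subunit genes (73.9%) passed, with median log2 fold changes of the listed ones of 0.33 and 0.31. Without palmitate 9 of 30 and 18 of 46 passed, with medians of 0.27 and 0.26, and 16 and 24 passed without replicate 1. The difference between subunits was not tested. Rpl5 and Rpl11, which bind Mdm2 and so link ribosome assembly to p53, had log2 fold changes of 0.11 ± 0.03 and 0.34 ± 0.07 with palmitate (SE). Rpl3, near the site where peptide bonds form, had 0.18 ± 0.03, and Rpl10, which joins the large subunit late, 0.24 ± 0.04 (SE).

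The paralogs Rpl22l1 and Rpl7l1, and Fau, also passed with palmitate. Rpl22l1, the paralog of Rpl22, had 1635, 1957, 1883, 2085 and 2166 normalised counts in Ripk3-/- cells with palmitate, against 1719, 1459, 1495, 1338 and 1445 in WT cells with palmitate. Replicate 1 of the knockout lay inside the WT range, and the log2 fold change was 0.38 ± 0.08 (SE; edgeR adjusted p = 0.00664). Rpl22 itself rose by 0.46 ± 0.03 (SE, log2) without overlap, at 5668 to 6301 normalised counts in Ripk3-/- cells against 4246 to 4634 in WT cells. Rpl7l1 rose by 0.14 ± 0.03 (SE, log2). Fau, which encodes a small-subunit protein outside the name pattern, rose by 0.13 ± 0.04 in the palmitate comparison (SE, log2; edgeR adjusted p = 0.022). Without palmitate Rpl22l1 and Rpl7l1 had log2 fold changes of 0.19 ± 0.07 and 0.13 ± 0.04 (SE), with edgeR adjusted p of 0.0778 and 0.0585. Without replicate 1 Rpl22l1 passed at 0.24 ± 0.05 (SE; edgeR adjusted p = 0.00299), and Rpl7l1 had 0.14 ± 0.05 (SE; edgeR adjusted p = 0.0584).

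Rpl15 and Rps24 ran against the other listed members. Rpl15, a large-subunit protein of 204 residues, had 9293, 9984, 9964, 9925 and 10022 normalised counts in Ripk3-/- cells with palmitate, against 11126, 10244, 10779, 10344 and 10246 in WT cells with palmitate. The groups did not overlap, and the log2 fold change was -0.10 ± 0.03 (SE; edgeR adjusted p = 0.0115). Untreated, Rpl15 had 11344, 10521, 10525, 10405 and 10461 normalised counts in Ripk3-/- cells against 11670, 11416, 12108, 12039 and 11673 in WT cells, a log2 fold change of -0.15 ± 0.03 (SE; edgeR adjusted p = 0.012). Replicate 1 was here the knockout library nearest to WT, and without it the value was -0.17 ± 0.04 (SE; edgeR adjusted p = 0.00244). Rps24, a small-subunit protein of 133 residues, was listed without palmitate, at -0.22 ± 0.06 (SE, log2; edgeR adjusted p = 0.023), with overlapping groups and its lowest value, 17735 normalised counts, in replicate 1, and at -0.18 ± 0.05 without that library (SE; edgeR adjusted p = 0.0252).

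Both genes lie on chromosome 14, Rpl15 at chr14:18267823-18271391 and Rps24 at chr14:24487125-24496959 (mm10), and no other listed member does. Ripk3 lies on the same chromosome. Of the other listed genes on chromosome 14, 237 of 269 (88.1%) were lower in Ripk3-/- cells with palmitate by the authors' deposited fold changes, against 48.0% on all other chromosomes. Without palmitate it was 200 of 216 (92.6%), against 46.6%. The part of the chromosome in these 2 members' values was not tested.

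Reads of several members may be shared with near-identical copies. In the annotation 45 of the 62 members have pseudogenes named after them, 179 in all, and how the authors' counting divided such reads is not given in the sources used here. Rpl30 had the largest log2 fold change of any member with palmitate, 1.84 ± 0.46 (SE; edgeR adjusted p = 0.0186), but its libraries disagreed. They held 2417, 469, 2807, 2656 and 1631 normalised counts in Ripk3-/- cells, against 437, 804, 453, 631 and 450 in WT cells. Replicate 2 of the knockout lay inside the WT range, and the call was lost without WT replicate 3. The pseudogene Rpl30-ps8 averaged 31.1 ± 9.66 normalised counts in Ripk3-/- cells and 5.58 ± 0.77 in WT cells with palmitate (SD, n = 5 each). Rpl26 (0.72 ± 0.12, SE, log2) was counted at only 269 to 401 normalised counts in Ripk3-/- cells and 175 to 239 in WT cells. Rps27 and its near copy Rps27rt rose together, by 0.94 ± 0.19 and 1.47 ± 0.27 (SE, log2). These values may be uncertain in size because of shared reads, which was not tested. Over the tables, 57 of 62 listed ribosomal protein pseudogenes were higher in Ripk3-/- cells with palmitate and 35 of 40 without.

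**Figure D4:**
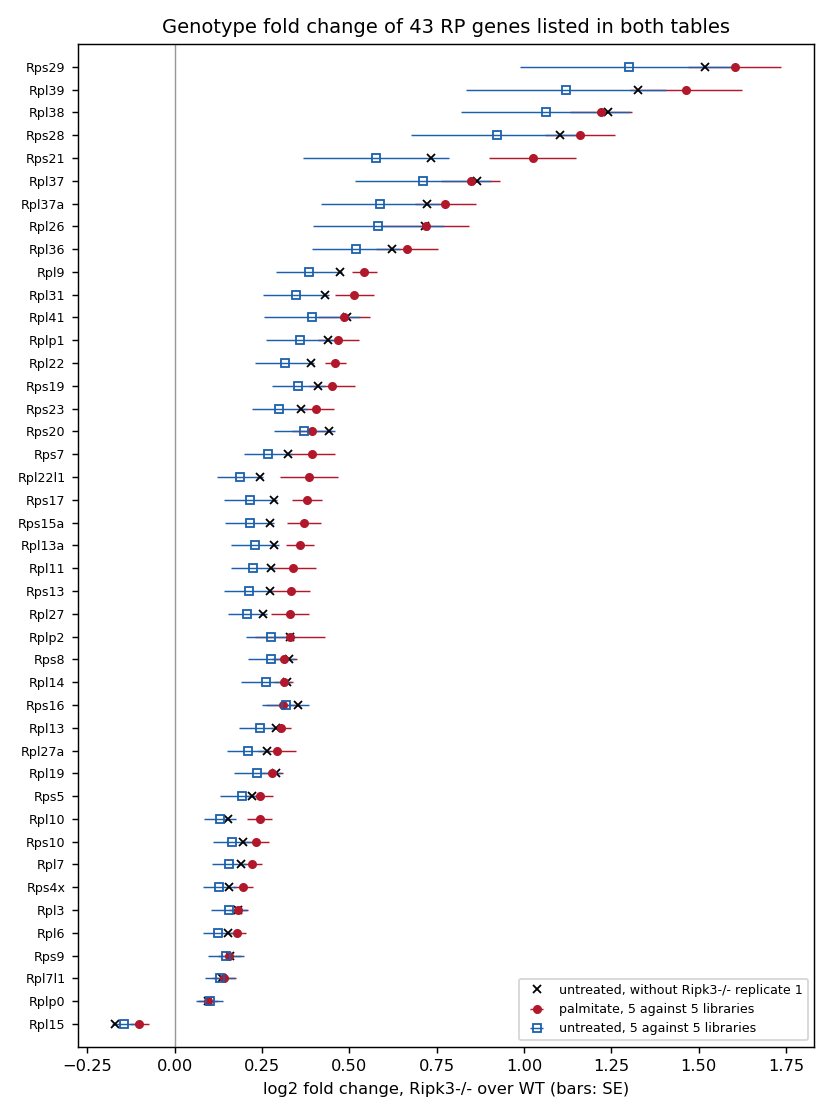
Log2 fold change of Ripk3-/- over WT cells (x axis, bars SE) of the 43 ribosomal protein genes listed in both genotype tables, with palmitate (filled circles), untreated (open squares) and untreated without Ripk3-/- replicate 1 (crosses). The order of genes is alike in all 3 and Rpl15 lies below 0.

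The genotype difference had nearly the same profile in both conditions, which share no libraries. All 43 members listed in both had the same direction, and 42 were higher in Ripk3-/- cells. Their log2 fold changes with and without palmitate had a Pearson r of 0.98 and a Spearman rho of 0.93 (n = 43 genes, a description across genes that were selected by both comparisons), and 0.99 and 0.94 without replicate 1. The fold change was farther from 0 with palmitate in 40 of 43 members, and in 32 of 43 when replicate 1 was left out. Of the 27 members that passed without palmitate, 26 (96.3%) passed with it, which is 43.3% of the 60 that passed with palmitate. How far all genes listed in both comparisons agreed in direction and size is not given here. The likeness is therefore not shown to be particular to the members.

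Few members passed in the comparisons of palmitate with untreated cells. In the WT comparison of palmitate with untreated cells, Rpl22, Rpl9 and Rpl15 were listed and all 3 passed, at -0.13 ± 0.04, -0.12 ± 0.04 and -0.09 ± 0.03 (SE, log2; edgeR adjusted p = 0.0337, 0.0408 and 0.0344). Over all 13764 tested genes 14.6% passed, 6.25% as lower, and the authors listed 15.8%. Among the 2174 listed genes 2016 passed, 860 of them as lower. Rpl9 had 10063, 9330, 9351, 9074 and 9581 normalised counts in WT cells with palmitate, against 10462, 9366, 11046, 10480 and 10202 in untreated WT cells. The groups overlapped for each of the 3 genes, while 70.1% of all listed genes did not overlap. None of them (0) passed when palmitate replicate 2, 3, 4 or 5 or untreated replicate 3, 4 or 5 was left out, and 1 passed without untreated replicate 1. In Ripk3-/- cells no member (0) was listed for palmitate, where 7.56% of 12871 tested genes passed edgeR's test and the authors listed 10.2%, so neither edgeR at an unadjusted p under 0.05 nor DESeq2 could call one from that table (0 members each).

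The 43 members listed in both genotype tables can be followed in all 20 libraries, in a fit of 2993 genes. Those were the genes listed in both genotype comparisons or in both palmitate comparisons, and the members entered by the former only. The shares of all genes in this fit thus include genes chosen for a palmitate response. The gap between them and the members was set in part by that choice. The contrasts of palmitate within a genotype were added to the fit after the data were seen. In Ripk3-/- cells the median palmitate effect over the 43 members was 0.04 on the log2 scale (range -0.05 to 0.28), and 0 members passed edgeR's test, also 0 at an unadjusted p under 0.05, against 40.2% of all genes in that fit. With TMM scaling over the listed genes 1 member passed. Without untreated replicate 1 the median was -0.01 (range -0.10 to 0.14), with 0 passing, against 38.3% of all genes, and 1 at an unadjusted p under 0.05. In WT cells the median was -0.05 (range -0.24 to 0.14). There 2 members passed, Rpl15 at -0.09 ± 0.03 and Rpl10 at -0.12 ± 0.04 (SE), against 42% of all genes. Rpl22 and Rpl9, which passed in the separate WT comparison, did not pass with all 20 libraries, even at an unadjusted edgeR p under 0.05. Without the knockout replicate 1, which shares the estimate of spread, 4 members passed, against 43.3% of all genes.

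The palmitate effect was also compared between genotypes in that fit. No member (0) had an effect that differed between Ripk3-/- and WT cells by edgeR's test, 0 at an unadjusted p under 0.05 and 0 by DESeq2; over all 2993 genes 0% passed edgeR's test. The median difference, Ripk3-/- minus WT, was 0.11 on the log2 scale, with 41 of 43 members above 0. It was 0.04 without untreated Ripk3-/- replicate 1, where 0 members and 0.0668% of all genes passed. The widest was that of Rps21, 0.45 ± 0.25, followed by Rpl39 and Rps29 at 0.34 ± 0.33 and 0.30 ± 0.34 (SE). Without that replicate the 3 were at 0.29 ± 0.16, 0.14 ± 0.18 and 0.09 ± 0.17 (SE), so this library moved each value by over 1.5 times. Differences of this size in the short members did not pass with either set of libraries, and the size that could be detected was not worked out. Without untreated Ripk3-/- replicate 5, 0 members passed, and 6 were at an unadjusted edgeR p under 0.05.

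**Figure D5:**
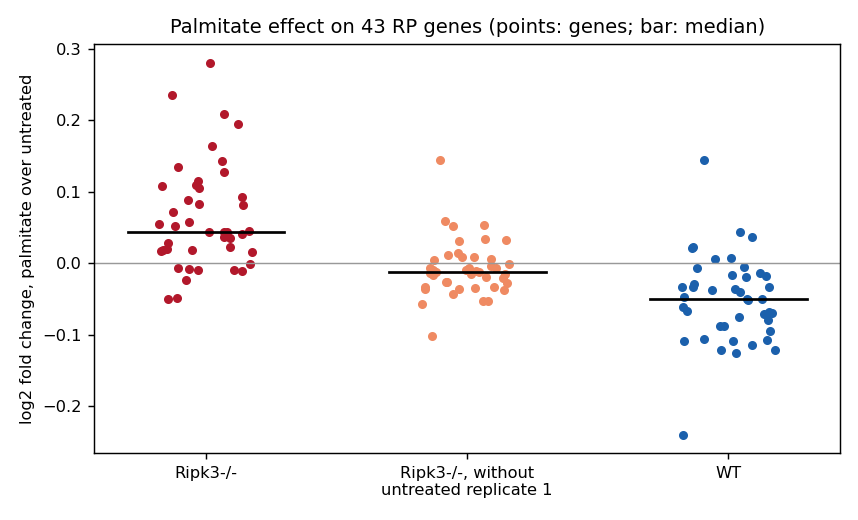
Log2 fold change of palmitate-treated over untreated cells (y axis) for 43 ribosomal protein genes, in Ripk3-/- cells, in Ripk3-/- cells without untreated replicate 1, and in WT cells (bar: median, at 0.04, -0.01 and -0.05). The points spread less, and around 0, once the replicate is left out.

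Other genes of protein synthesis passed in both directions. Over all tested genes 24.2% passed in the genotype comparison with palmitate, 14.5% in that without it and 14.6% for palmitate in WT cells. Of 23 further known TOP mRNAs, 13 passed with palmitate (56.5%), 11 higher and 2 lower in Ripk3-/- cells, with a median log2 fold change of 0.12 over those listed. Pfdn5, a prefoldin subunit, Rack1, a scaffold on the small subunit, and Cct4, a chaperonin subunit, rose by 0.21 ± 0.04, 0.21 ± 0.02 and 0.19 ± 0.02 (SE, log2). Without palmitate 5 passed (21.7%), 3 higher and 2 lower, among them Rack1 at 0.19 and Tpt1, the translationally controlled tumour protein, at -0.14, whose call was lost without replicate 1 (-0.13, edgeR adjusted p = 0.0504). In WT cells palmitate gave 5 (21.7%), 1 higher and 4 lower, with Tpt1, Pfdn5 and Eif3h, an initiation factor subunit, at -0.16, -0.16 and -0.13.

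Of 51 ribosome biogenesis genes, 12 passed in the genotype comparison with palmitate (23.5%, near the share of all genes), 3 higher and 9 lower in Ripk3-/- cells, with a median of -0.12 over those listed. The largest were Rrs1, Ltv1 and Taf1d at -0.21, -0.19 and -0.19 on the log2 scale. Without palmitate 3 passed (5.88%), Heatr1 and Rrn3 higher (0.20 and 0.18) and Gnl3 lower (-0.18), and in WT cells with palmitate over untreated 6 passed (11.8%), all higher. Of 30 initiation, elongation and termination factors, 11 passed with palmitate (36.7%; 6 higher, 5 lower), led by Eef2k, the kinase of elongation factor eEF2, at 0.35 ± 0.03 (SE, log2), Eif3j1 at -0.27 and Eif1 at 0.25. Without palmitate 6 passed (20%), 4 higher and 2 lower, again Eif1 (0.28), Eef2k (0.27) and Eif3j1 (-0.27). Eef2k was lower with palmitate in WT cells (-0.25 ± 0.04, SE, log2) and in Ripk3-/- cells (-0.18 ± 0.05). In Ripk3-/- cells its call was lost without untreated replicate 1 (-0.15, edgeR adjusted p = 0.105).

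Of 23 genes of mTORC1 and Myc signalling, 5 passed with palmitate (21.7%, near the share of all genes), 3 higher and 2 lower in Ripk3-/- cells. Sesn2 and Akt1s1, both inhibitors of mTORC1, were at -0.24 and -0.17, and Mtor at 0.11 on the log2 scale. Without palmitate 3 passed (13.0%), all higher: Eif4ebp1, the repressor of cap-dependent initiation, at 0.20, Larp1 at 0.15 and Eif4ebp2 at 0.11. Of 15 p53 targets, 8 passed with palmitate (53.3%), 2 higher and 6 lower, and 3 without (20%), all lower, or 2 without replicate 1. Fas, a death receptor, led both, at -0.51 ± 0.05 with palmitate and -0.53 ± 0.06 without (SE, log2; -0.56 without replicate 1).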

How the data were processed

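RNA-seq libraries of the 4 groups were compared pairwise, as in the 4 deposited tables. Per the submitters' processing notes, FastQC 0.11.9, HISAT2, featureCounts 1.5.0-p3, DESeq2 and the build mm10 were used, while annotation and strandedness were not given in the sources used here. Per the file headers, the authors deposited for each listed gene the raw read count, a normalised count (a signal: reads over a library's size factor), FPKM, the gene length, the log2 fold change, and the p-value and adjusted p-value. There were 0 columns of other samples.

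The counts were tested with edgeR 4.0.16 in R 4.3.3 (quasi-likelihood, robust) in each table of 10 libraries, with the authors' size factors as library sizes and the Benjamini-Hochberg adjustment over the number of genes the authors tested, worked out from their p-values. edgeR gives no standard error (SE) here, so each SE of its fold changes is the size of the log2 fold change over the square root of the test's F statistic. Palmitate effects were compared between genotypes as an interaction over 20 libraries. Levels were log2(normalised count + 1), offsets used lowess with a span of 0.3, and coding lengths came from GENCODE, where 59 of 62 coordinates were equal. The fits were tested on simulated counts. DESeq2 1.42.0, other scalings, filters, offsets, a replicate block and leaving out each library were alternatives.

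The members and gene lists were chosen with earlier results of these data known. Text names, per table, the 10 passing members with the largest and the 3 with the smallest change, the longest, the shortest, those against the majority and the paralogs, and 3 genes per other list. Rpl41, Rplp2, Rpl5, Rpl11, Rpl3, Rpl22 and Rpl10 were added after their values were seen.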

Additional observations from a re-analysis of the deposited data

Results flagged for a closer look

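Among 82 groups of 5 libraries, for named members and the family median, 15 held a library far from the others by Dixon's criterion. Chance gives about 1 in 20 for separate groups. These groups share libraries and the members move together, so the count is a description. In untreated Ripk3-/- cells, replicate 1 was flagged for 7 of 17 named members. It was far below the rest of its group for Rps29 (2412 normalised counts), Rpl39 (9220), Rpl38 (3924), Rps28 (3932), Rpl37 (6125) and Rpl9 (9593), and far above it for Rpl15 (11344), in each case toward the untreated WT libraries. In Ripk3-/- cells with palmitate, replicate 1 was likewise lowest and apart for Rpl38 (7397 normalised counts), Rps28 (6959), Rpl15 (9293), Rplp0 (53034) and Rps27l (3354). In untreated WT cells, replicate 2 was low for Rps29 (2034 normalised counts). In WT cells with palmitate, replicate 1 was high for Rps15a (11546 normalised counts). In the comparison of palmitate with untreated WT cells, the median of the 3 listed members was highest in palmitate replicate 1, at -0.033 on the log2 scale relative to untreated WT cells.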

How the results depend on the processing

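With palmitate, 50 to 61 members passed under the alternatives, and 57 to 61 with 1 library left out. Of these 1 was lower, except under the gene length offset, where 50 were higher and 6 lower (46 and 4 with the block). Without palmitate the count was 42 by DESeq2 and 41 by TMM over the listed genes, against 27 in the test reported, and 7 to 41 with 1 library left out. For palmitate in WT cells it was 3 under every other alternative and 0 to 3 with 1 library left out; for the difference between genotypes it was 0 under the alternatives run. In Ripk3-/- cells it was 0 because no member was listed, and over 20 libraries it was 1 with TMM scaling and 0 in the other fits. The median log2 fold change of members ranged over 0.20 to 0.31 without palmitate, 0.30 to 0.35 with it, and -0.15 to -0.09 for palmitate in WT cells when 1 library was left out. With palmitate it was 0.23 under the gene length offset, also with the replicate block (0.23), and 0.21 under the coding length offset, while the gene length offset moved the median of all listed genes from 0.06 to -0.05. For palmitate in WT cells it was -0.19 under DESeq2 size factors over the listed genes, the gene length offset, and that offset with the replicate block. Among members of the naming rule, directions turned for Rpl36 without palmitate (-0.0601 under the gene length offset, -0.0625 with the block) and with it (-0.0529, -0.0558), for Rplp1 without palmitate (-0.139, -0.141), for Rps27l with palmitate (-0.164, -0.165, and -0.0569 under the coding length offset) and for Rps25 with palmitate (-0.0688 under the coding length offset). Over all passing members, 9 of 60 with palmitate and 3 of 27 without turned under the gene length offset, and 3 of 60 with palmitate under the coding length offset. The cause was not tested. For the named members without palmitate, leaving out 1 library lost the call in 79 fits, gained it in 4 and left the outcome the same in 87. Those 87 include fits of Rpl22l1 and Rpl7l1, which did not pass with all libraries. With palmitate 8 calls were lost and 172 kept. TMM over the listed genes put 59.2% of all passing genes without palmitate higher in Ripk3-/- cells, against 48.8%. Replicate numbers were not taken as pairs, since in no comparison did all 5 same-numbered pairs correlate above 0.1: 1 did without palmitate, 0 with it, 3 for palmitate in WT cells and 4 in Ripk3-/- cells, over a range of -0.10 to 0.29. A replicate block gave 18 members without palmitate, 55 with it and 3 for palmitate in WT cells, and with the gene length offset 24 and 50. Because tables hold passing genes, members not listed were not analysed here, and the dispersion rests on listed genes.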
